A study of Rattus norvegicus with 6 samples.

Results

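Fragments of the nuclear aspartic acid tRNA with anticodon GTC were followed in small RNA libraries of rat muscle. A fragment is a distinct read sequence, and a member is a sequence that matches a mature Asp-GTC tRNA without a mismatch and matches no mature tRNA of any other anticodon. By this rule 567 of the 77567 distinct sequences in the deposited table were members, and they held 14994 reads. The libraries were 3 titled as control and 3 titled as experimental. The labels give the Lewis strain, an age of 6 to 8 weeks and muscle as the source for all 6, and the title of the series concerns small RNAs of tRNA origin as markers of acute rejection of a transplanted composite tissue. No label says what treatment the experimental samples had, and the skin descriptor and the design text speak of ultraviolet damage in mouse skin, so the grouping here rest on the titles alone. Whether the libraries of 1 group are from different animals is not stated. The p-values therefore describe the spread among these 6 libraries, and part of it may be technical.

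A tRNA folds into a cloverleaf whose anticodon loop is exposed. Stress-activated nucleases such as angiogenin cut in that loop and leave a 5' piece and a 3' piece, and other cuts in the D and T arms leave shorter pieces. The 3' end of every mature tRNA carries CCA, added after transcription, to which the amino acid is bound. The Asp-GTC tRNA is one of the few that carry queuosine at the first anticodon base, and it is the best known substrate of the methyltransferase DNMT2, which methylates a cytosine in the anticodon loop. Both modifications are known to influence cutting of the loop, and neither was measured here.

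The deposited table held 3 mature Asp-GTC tRNAs of 75 nt each with CCA, shown because every fragment described here is a stretch of one of them. They are written with T for U. Positions count from 1 at the mature 5' end. Capitals mark the anticodon at positions 34 to 36 and the bases at positions 20, 41 and 56, the only places where the 3 differ.
tRNA-Asp-GTC-1-1: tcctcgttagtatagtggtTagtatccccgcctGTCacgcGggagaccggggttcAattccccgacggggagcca
tRNA-Asp-GTC-2-1: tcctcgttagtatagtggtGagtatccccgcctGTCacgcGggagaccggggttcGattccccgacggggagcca
tRNA-Asp-GTC-3-1: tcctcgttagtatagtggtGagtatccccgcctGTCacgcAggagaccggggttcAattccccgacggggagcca
With tRNA-Asp-GTC-2-1 as the reference, tRNA-Asp-GTC-1-1 carries G20T and G56A, and tRNA-Asp-GTC-3-1 carries G41A and G56A. In the coordinates of the files, counted from 1, tRNA-Asp-GTC-1-1 lies at chromosome 7, 31883685 to 31883756, tRNA-Asp-GTC-2-1 at chromosome 7, 34287931 to 34288002, and tRNA-Asp-GTC-3-1 at chromosome X, 9411116 to 9411187. The genome build of these coordinates is not given in the sources used here. Also listed are 11 Asp-GTC precursors, 10 of which are copies of tRNA-Asp-GTC-2 on chromosomes 7, 10, 12 and 13. No member was listed under a precursor. The listed precursors of tRNA-Asp-GTC-1-1 and tRNA-Asp-GTC-2-1 span the mature tRNA, so this describes the listing and not a lack of match. Of the members, 239 matched only tRNA-Asp-GTC-2-1, 98 only tRNA-Asp-GTC-1-1 and 7 only tRNA-Asp-GTC-3-1. The rest lay where at least 2 of the tRNAs are identical.

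The fragments on which the results turn are the next sequences. Each name gives the tRNA, or the tRNAs that share the sequence, with the first and last position, and capitals mark bases of the anticodon and position 56.
Asp-GTC-2 37 to 69: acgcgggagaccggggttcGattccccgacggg
Asp-GTC-1 37 to 69: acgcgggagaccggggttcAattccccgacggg
Asp-GTC-2 37 to 71: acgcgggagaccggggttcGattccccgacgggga
Asp-GTC-1 37 to 71: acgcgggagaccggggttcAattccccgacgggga
Asp-GTC-2 37 to 75: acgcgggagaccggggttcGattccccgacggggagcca
Asp-GTC-2 35 to 70: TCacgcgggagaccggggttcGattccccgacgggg
Asp-GTC-2 35 to 71: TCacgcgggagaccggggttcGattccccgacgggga
Asp-GTC-2 38 to 73: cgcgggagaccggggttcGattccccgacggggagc
Asp-GTC-2/3 1 to 36: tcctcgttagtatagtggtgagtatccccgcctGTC
Asp-GTC-2/3 1 to 32: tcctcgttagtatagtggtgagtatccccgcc
Asp-GTC-2/3 1 to 29: tcctcgttagtatagtggtgagtatcccc
Asp-GTC-2 52 to 69: gttcGattccccgacggg

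Asp-GTC fragments were a small part of the tRNA-derived reads. Among 550004, 740627 and 316990 tRNA-aligned reads, controls 1, 2 and 3 had 4045, 1119 and 610 member reads. Experimental libraries 1, 2 and 3 had 2900, 3386 and 2934 among 876494, 1927269 and 1866227. That was 0.735%, 0.151% and 0.192% in the controls and 0.331%, 0.176% and 0.157% in the experimental libraries. The 95% Wilson intervals were 0.713 to 0.758, 0.142 to 0.160, 0.178 to 0.208, 0.319 to 0.343, 0.170 to 0.182 and 0.152 to 0.163 in the same order, and these intervals hold counting error alone, because reads copied by PCR do not count separate molecules. Control 1 stood above all other libraries, and the groups overlapped. The mean was 0.360% ± 0.326 (SD, n = 3) for the controls and 0.221% ± 0.0954 (SD, n = 3) for the experimental libraries, which did not differ beyond that spread (two-sided exact permutation test, p = 0.7, where 3 against 3 libraries cannot go below 0.1). Without control 1 the experimental mean was higher by 0.0495 percentage points. In the fit across 64 anticodon sums, of which 10.9% were called, the Asp-GTC sum had a log2 fold change of -0.30 ± 0.42 (SE), which missed the threshold of 0.05 (adjusted p = 0.613 in limma voom). In tissue RNA, fewer cells of a type and less RNA per cell cannot be told apart.

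Most members were rare. Of the 567, 221 were seen once and 430 had under 10 reads over all libraries, while 36 members with at least 100 reads held 10848 of the reads and the 8 most abundant held 5518. The control libraries showed 132, 142 and 105 distinct members and the deeper experimental libraries 266, 404 and 274. A further 1744 sequences differed from an Asp-GTC tRNA at 1 base and held 4746 reads. Of those reads 52.3% had the difference at the last base of the read, 11.2% at the first base, and 69.6% within 2 bases of an end. Inside the reads no position differed in more than 1.34% of the pooled reads over it, which was the value at position 6 with G6A as its main change.

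The reads were classed by their first and last position. A 5' fragment begins at position 1, a 3' fragment ends within the last 4 positions (72 to 75), and it is called long if it begins at position 38 or before and short if it begins later. All others are internal. The 35 sequences of 5' fragments held 52, 129 and 31 reads in the controls and 271, 517 and 317 in the experimental libraries. The 460 internal sequences held 3281, 608 and 403 reads in the controls and 1403, 1975 and 1206 in the experimental libraries. The 32 long 3' sequences held 631, 256 and 140 against 1025, 658 and 1102 reads, and the 40 short 3' sequences held 81, 126 and 36 against 201, 236 and 309. Internal reads were thus the most abundant class in all 6 libraries. The authors' own fragment types gave little guidance, because 94.1% to 99.1% of member reads carried the type Other.

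As shares of member reads, 5' fragments took 1.29%, 11.5% and 5.08% in the controls and 9.34%, 15.3% and 10.8% in the experimental libraries. Control 1 was far below the others and control 2 lay within the experimental range. The means were 5.97% ± 5.18 (SD, n = 3) and 11.8% ± 3.09 (SD, n = 3), with p = 0.3 in the two-sided exact permutation test. Internal reads took 81.1%, 54.3% and 66.1% in the controls and 48.4%, 58.3% and 41.1% in the experimental libraries, with means of 67.2% ± 13.4 and 49.3% ± 8.65 (SD, n = 3 each, exact permutation p = 0.2). Long 3' fragments took 15.6%, 22.9% and 23.0% against 35.3%, 19.4% and 37.6%, where experimental 2 lay among the controls (exact permutation p = 0.3). Short 3' fragments took 2.00%, 11.3% and 5.90% against 6.93%, 6.97% and 10.5% (exact permutation p = 0.5). None of the 4 shares separated the groups. Counting error was smaller than the spread between libraries: in control 3, the shallowest library, the 95% Wilson interval of the internal share was 62.2% to 69.7%.

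**Figure D1:**
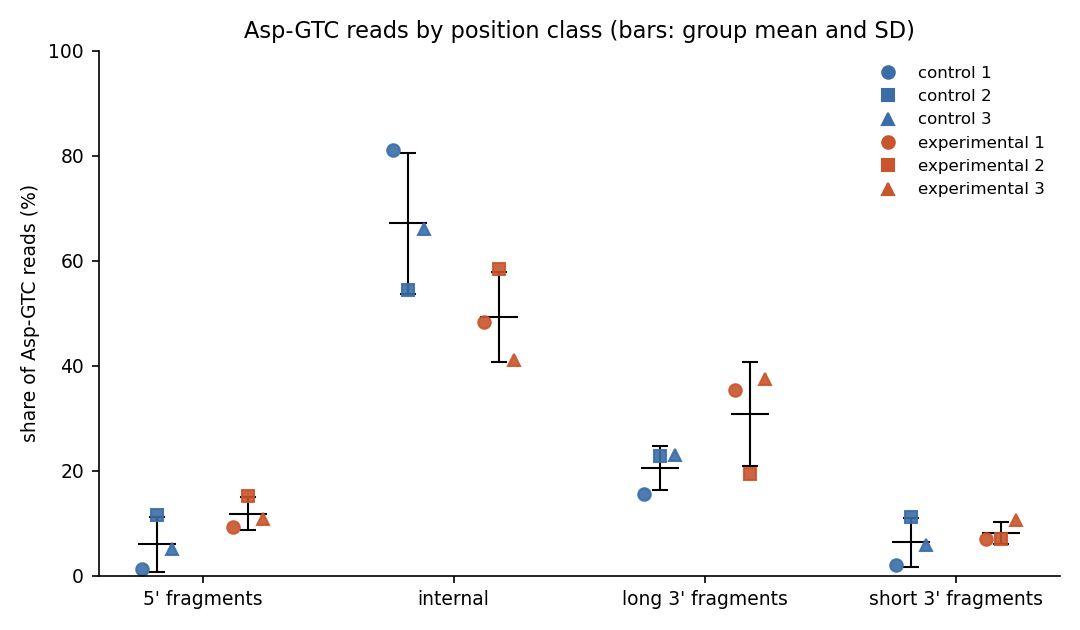
Share of Asp-GTC reads (%) in each position class, with 1 point per library, horizontal bars at the group mean and whiskers of 1 SD (n = 3). Internal reads are the most abundant class in every library, from 41.1% to 81.1%, and the groups overlap in all 4 classes.

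The same classes were compared as amounts in a fit across 133 class sums of all anticodons, of which 26.3% were called in either direction. The 5' fragments of Asp-GTC had a log2 fold change of 1.38 ± 0.55 (SE) and missed the threshold (limma voom, adjusted p = 0.0658). Without control 2 the change was 2.08 and passed (adjusted p = 0.0121). It did not pass with any other library left out. The change was 0.90 without control 1 (adjusted p = 0.216) and 1.06 without control 3 (adjusted p = 0.265). In limma voom with each class's own spread the adjusted p was 0.240, and with library totals as the scale 0.342. Internal reads had a log2 fold change of -0.48 ± 0.50, long 3' fragments 0.50 ± 0.48 and short 3' fragments 0.56 ± 0.51, and none of these was called (adjusted p = 0.477, 0.441 and 0.425 in the same fit). Where 3' fragments were instead taken to end at position 66 or later, a boundary chosen after the data were seen, the directions turned, with 0.49 for internal reads and -0.36 for long 3' fragments. Without control 1 the value for internal reads was 0.02.

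The internal class was for the most part a 3' piece that stops before the 3' end. How that end arose was not tested. Of its 8876 reads, 6676 began at positions 30 to 42 and ended at position 66 or later, short of the last 4 positions. Together with the long 3' fragments and 958 of the short 3' reads they form the 3' side reads, a grouping chosen after the data were seen, with 156 sequences and 11446 reads. They took 96.6%, 72.4% and 72.0% of member reads in the controls and 73%, 58.5% and 74.7% in the experimental libraries. The groups overlapped. Since the first position may lie in or before the anticodon, the name stands for where these reads end.

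The 3' side reads began most often at position 37, the base just after the anticodon. That position took 74.5%, 38.8% and 54.4% of them in the controls and 35.9%, 24.7% and 28.01% in the experimental libraries. All 3 controls were higher than all 3 experimental libraries, with means of 55.9% ± 17.9 and 29.6% ± 5.77 (SD, n = 3 each), which gave the smallest p the design allows (two-sided exact permutation p = 0.1, adjusted p = 0.3 over 36 position measures, all chosen after the data were seen). The 95% Wilson interval in control 2, the lowest control, was 35.5% to 42.2%, and that in experimental 1, the highest experimental library, was 33.9% to 38.01%, so these neighbours differed by less than counting error. The difference of the means was -26.3 percentage points, and -17.0 without control 1.

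Position 38 took 2.56%, 14.3% and 11.6% in the controls and 27.6%, 16.1% and 21.1% in the experimental libraries, again without overlap (exact permutation p = 0.1, adjusted p = 0.3). Position 35, inside the anticodon, took 0.154%, 3.70% and 0.911% in the controls but 3.21%, 20.3% and 21.9% in the experimental libraries. Experimental 1 resembled the controls there and the groups overlapped (exact permutation p = 0.2, adjusted p = 0.327). Position 36 took 14.1%, 14.3% and 16.6% against 11.5%, 11.5% and 7.94%, and position 40 took 1.46%, 2.72% and 2.73% against 4.06%, 6.06% and 3.15%, both without overlap (exact permutation p = 0.1 each, adjusted p = 0.3). Position 39 overlapped (exact permutation p = 1.0), and position 34, the first anticodon base, began 1 read in all. The mean first position was 37.3 ± 0.225 in the controls and 37.2 ± 0.119 in the experimental libraries (SD, n = 3 each).

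The length of the reads bears on these shares. The table holds reads of 14 to 40 nt, so a read that begins at position 35 cannot reach the last base at 75, and one that begins at 36 reaches it only at the full 40 nt. Among 3' side reads that end at position 73 or before, position 35 began 0.173%, 5.27% and 1.38% in the controls and 5.70%, 24.8% and 26.8% in the experimental libraries, now without overlap, while position 36 overlapped between groups with a difference of -0.504 percentage points. The difference at position 37 was -35.5 percentage points among these reads.

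**Figure D2:**
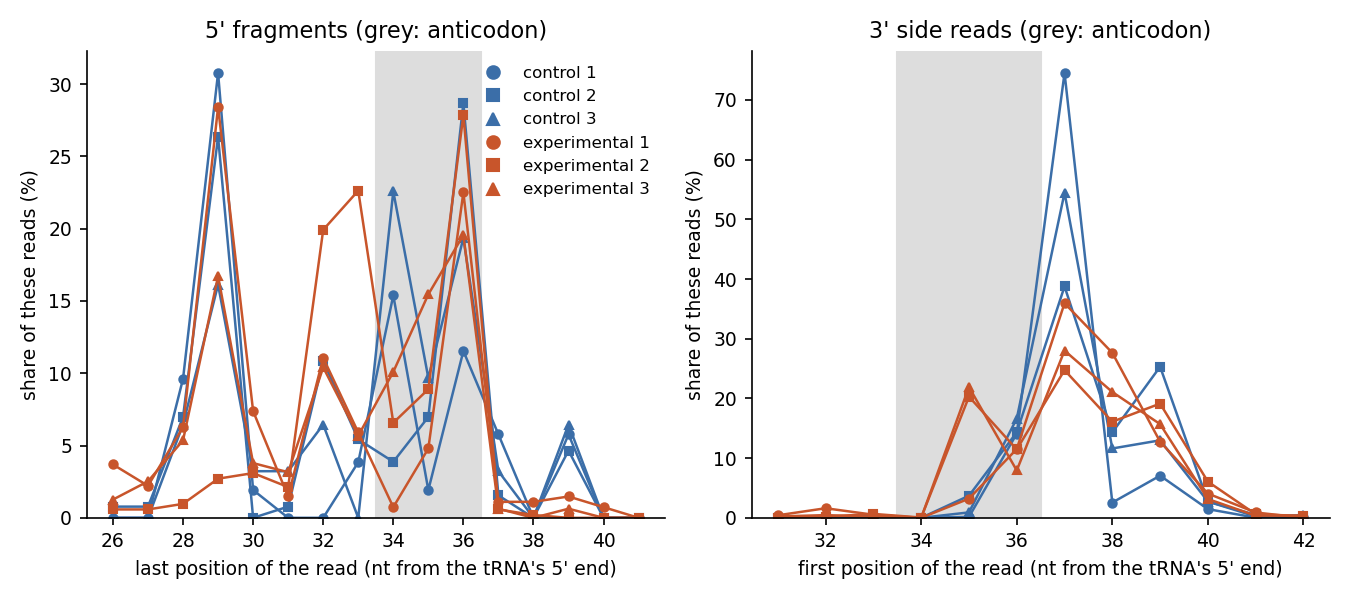
Share (%) of 5' fragments by their last position, left, and of 3' side reads by their first position, right, against position in nt from the 5' end of the tRNA, with 1 line per library and the anticodon in grey. The 5' fragments peak at position 29 or 36 in every library but control 3, which peaks at 34, and the 3' side reads peak at position 37 in all 6, from 24.7% to 74.5%.

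The 5' fragments had several preferred ends. Position 36, the last anticodon base, was the end of 11.5%, 28.7% and 19.4% of them in the controls and 22.5%, 27.9% and 19.6% in the experimental libraries, with means of 19.9% ± 8.58 and 23.3% ± 4.204 (SD, n = 3 each, exact permutation p = 0.6). Position 29, in the anticodon stem, was the end of 30.8%, 26.4% and 16.1% against 28.4%, 2.71% and 16.7%. Experimental 2 was low there and instead had 19.9% of its 5' fragments ending at position 32 and 22.6% at position 33. Position 32 took 0%, 10.9% and 6.45% in the controls and 11.1%, 19.9% and 10.4% in the experimental libraries, with overlap. Position 33 took 3.85%, 5.43% and 0% against 5.90%, 22.6% and 5.68%, without overlap. Ends at positions 28 and 37 did not overlap either and were lower in the experimental libraries (exact permutation p = 0.1 each of the 3, adjusted p = 0.3 over the 36 position measures). The mean last position was 32.1 ± 1.11 and 32.2 ± 0.758 (SD, n = 3 each, exact permutation p = 0.9). These shares rest on 52, 129 and 31 control reads, and the 95% Wilson interval of the share at position 36 in control 3 ran from 9.19% to 36.3%.

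Toward the 3' end the 3' side reads stopped at a few preferred bases. Position 69, in the acceptor stem, took 54.0%, 36.4% and 28.5% in the controls and 28.3%, 22.2% and 17.2% in the experimental libraries. The groups did not overlap, though control 3 and experimental 1 were nearly equal, and the means were 39.6% ± 13.04 and 22.6% ± 5.58 (SD, n = 3 each, exact permutation p = 0.1, adjusted p = 0.3). The difference was -17.03 percentage points, and -9.86 without control 1. Position 71 took 21.9%, 12.0% and 23.9% against 6.47%, 20.8% and 9.85%, with overlap.

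The bases of the added CCA are positions 73 to 75. Reads ending at 73, with only the first C, took 6.22%, 10.7% and 4.78% in the controls and 8.69%, 21.4% and 31.3% in the experimental libraries, with overlap through experimental 1. Reads ending at 74 took 1.82%, 6.79% and 4.56% against 10.1%, 9.89% and 14.2%, without overlap (exact permutation p = 0.1, adjusted p = 0.3). Reads with the whole CCA, ending at 75, took 9.32%, 27.7% and 29.6% against 36.9%, 11.5% and 11.9%. Of the long and short 3' fragments, 51.1%, 59.7% and 76.1% carried the whole CCA in the controls and 63.9%, 25.95% and 18.5% in the experimental libraries. Experimental 1 matched the controls and the other 2 experimental libraries were below all of them. The means were 62.3% ± 12.7 and 36.1% ± 24.3 (SD, n = 3 each, exact permutation p = 0.3). At the read lengths held here, a read from position 35 cannot reach 75, so one ending at 73 or 74 lowers this share. Asp-GTC-2 35 to 73 alone had 2, 3 and 0 reads in the controls and 4, 106 and 153 in the experimental libraries. Its reads also count among those ending at 73. The shares without reads from position 35 were not tested.

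**Figure D3:**
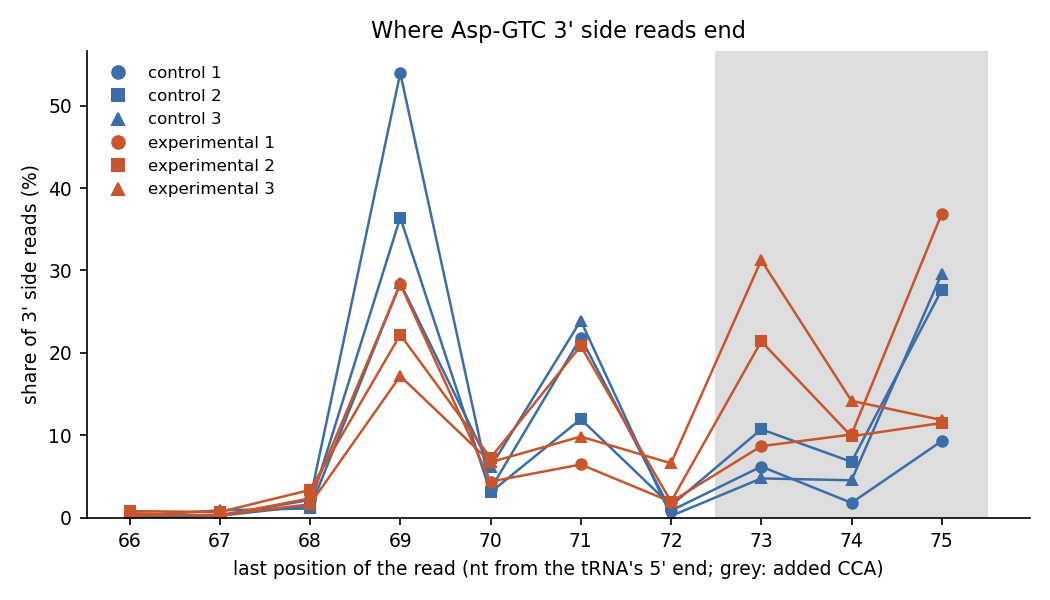
Share (%) of 3' side reads by their last position in nt from the 5' end of the tRNA, with 1 line per library and the added CCA in grey. Control 1 peaks at position 69 with 54.0%, experimental 2 and 3 have more reads at position 73 (21.4% and 31.3%) than any control, and experimental 1 peaks at position 75 with 36.9%.

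Single fragments were compared in a fit across all 2226 tRNA fragments that passed a filter on low counts, of which 18.7% were called higher and 7.64% lower in the experimental libraries at an adjusted p under 0.05. Only 37 of the 567 members passed the filter, with 70.1% of the member reads. They were 5 fragments of the 5' class, 16 internal, 12 long 3' and 4 short 3' fragments, and 29 of them were 3' side reads. Of these 37, 4 were called higher and 2 lower, and their median log2 fold change of 0.20 stood beside 0.21 over all fragments tested. The balance of directions turned on single libraries and on the filter: 6 higher and 0 lower were called without control 1, 1 higher and 6 lower without control 3, and 0 higher and 3 lower with a CPM minimum 3 times as high. Normalised values of 9 of the 37 did not overlap between groups, against 40.7% of all fragments tested. The filter asked for 12.4 CPM, the counts scaled to a common library size, in at least 3 libraries. Through the experimental libraries alone 4 members passed it, 3 of them among the called (Asp-GTC-2 35 to 70, Asp-GTC-2 38 to 73 and Asp-GTC-2/3 1 to 32), so the filter itself fixed their direction. Through the control libraries alone 1 member passed, Asp-GTC-1 37 to 71. It was called lower, and the filter fixed that direction too.

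All fragments in that fit shared 1 pooled spread. With each fragment's own spread 1.03% of all fragments were called and no member was (limma voom, 0 called, 4 members at an unadjusted p under 0.05). No call below therefore holds on a fragment's own spread alone. Control 1 had the highest value of all 6 named fragments that begin at position 37, and the values without it stand beside the calls.

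The most abundant fragment was Asp-GTC-2 37 to 69, a 3' piece from the base after the anticodon into the acceptor stem. It had 1306, 151 and 68 reads in the controls and 210, 131 and 140 in the experimental libraries. In normalised CPM that was 2529, 196 and 190 against 182, 126 and 84.2, so that all controls were higher, 2 of them by little. Its log2 fold change of -1.88 ± 0.87 (SE) missed the threshold (limma voom, adjusted p = 0.096), and its size rested on control 1: without that library it was -0.59 (adjusted p = 0.684), and without control 3 it was -2.93 and passed (adjusted p = 0.0489). Its counterpart from tRNA-Asp-GTC-1-1, Asp-GTC-1 37 to 69, which differs at position 56 alone, had 544, 19.5 and 36.4 CPM against 28.6, 17.3 and 8.42, with overlap (log2 fold change -2.19, adjusted p = 0.0589). Without control 1 its log2 fold change was -0.69 (adjusted p = 0.641), and it passed without control 2 (-3.12, adjusted p = 0.0207) or control 3 (-3.12, adjusted p = 0.0359).

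The fragments that reach 2 bases further were called lower. Asp-GTC-1 37 to 71 had 294, 12.99 and 53.1 CPM in the controls and 2.60, 7.71 and 3.01 in the experimental libraries. This fragment passed the filter through the control libraries alone, so the filter itself fixed its direction. The groups did not overlap, and in limma voom the log2 fold change was -3.79 ± 0.99 (SE, adjusted p = 0.001). The call was lost without control 1 (-2.56, adjusted p = 0.059) or without experimental 1 (-3.70, adjusted p = 0.0571). Asp-GTC-2 37 to 71 had 1034, 37.7 and 179 CPM against 17.3, 65.5 and 21.6, where experimental 2 lay above control 2, and fell by 2.69 ± 0.89 on the log2 scale (adjusted p = 0.014). It did not pass without control 1 (-1.46, adjusted p = 0.257), without experimental 1 (-2.46, adjusted p = 0.153) or without experimental 3 (-2.34, adjusted p = 0.103). Nor did it pass with library totals as the scale (-2.88, adjusted p = 0.096) or with only the minimum of 15 counts as the filter (-2.58, adjusted p = 0.0604).

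The 4 fragments called higher began at positions 35, 38 or 1. Other fragments from 35 did not pass the filter and were not tested. Asp-GTC-2 35 to 73 had 2, 3 and 0 reads in the controls and 4, 106 and 153 in the experimental libraries. Asp-GTC-2 35 to 72 had 1, 2 and 0 against 1, 15 and 48. In experimental 1 both were near the control counts. Asp-GTC-2 35 to 70, which opens with the last 2 anticodon bases, had 1, 0 and 0 reads in the controls and 20, 53 and 55 in the experimental libraries. In normalised CPM that was 1.94, 0 and 0 against 17.3, 51.1 and 33.1, and all experimental libraries were higher. Summed over each group that was 1 against 128 reads, a ratio of 44.1 per tRNA-aligned read with a 95% counting interval of 7.77 to 1754. The log2 fold change of 4.50 ± 0.99 fitted by limma voom (SE, adjusted p = 0.00015) depends on the prior count for so few control reads, and the fragment passed the filter through the experimental libraries alone.

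Asp-GTC-2 35 to 71 had 1.94, 18.2 and 0 CPM in the controls and 19.9, 145 and 47.5 in the experimental libraries, without overlap but with control 2 next to experimental 1. Its log2 fold change was 3.62 ± 0.99 (limma voom, adjusted p = 0.003), and 2.31 without control 3 (adjusted p = 0.184). Asp-GTC-2 38 to 73, a long 3' fragment that ends at the first base of CCA, had 7.75, 3.90 and 2.80 CPM against 35.5, 43.3 and 77.6, without overlap. It too passed the filter through the experimental libraries alone. Its log2 fold change was 3.18 ± 0.99 (adjusted p = 0.008). The call was lost without control 3 (2.58, adjusted p = 0.144) or without experimental 3 (3.01, adjusted p = 0.0625).

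Of the 5' fragments 1 was called. Asp-GTC-2/3 1 to 32, which ends in the anticodon loop before the anticodon, had 0, 11.7 and 2.80 CPM in the controls and 25.1, 93.4 and 18.6 in the experimental libraries. This fragment also passed the filter through the experimental libraries alone. Its log2 fold change was 3.27 ± 0.99 (adjusted p = 0.007 in limma voom). The call was lost without control 1 (2.35, adjusted p = 0.0931), without control 3 (2.88, adjusted p = 0.118), without experimental 1 (3.23, adjusted p = 0.0565) or with library totals as the scale (3.02, adjusted p = 0.0674). The most abundant 5' fragment, Asp-GTC-2/3 1 to 36, had 6, 31 and 6 reads in the controls and 58, 138 and 60 in the experimental libraries, with a log2 fold change of 1.54 (adjusted p = 0.223). Asp-GTC-2/3 1 to 29 had 13, 28 and 4 against 71, 12 and 48 reads, with overlap (log2 fold change 0.23, adjusted p = 0.878).

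Fragments with other ends did not follow the first position alone. Asp-GTC-2 37 to 75, the piece from the anticodon to the whole CCA, had 368, 59.8 and 83.9 CPM in the controls and 235, 60.7 and 47.5 in the experimental libraries (log2 fold change -0.50, adjusted p = 0.717 in limma voom). Asp-GTC-2 37 to 73 had 275, 25.99 and 25.2 CPM against 39.8, 77.1 and 85.4. Apart from control 1, the controls of this fragment were below all experimental libraries (log2 fold change 0.14, adjusted p = 0.925). The same first position thus belonged to fragments called lower, at 71, and to fragments with no call, at 73 and 75. Asp-GTC-2 36 to 69 had 436, 19.5 and 16.8 CPM against 30.3, 5.78 and 12.6 (log2 fold change -2.02, adjusted p = 0.0902). Without control 1 it was -0.46 (adjusted p = 0.772), and it passed without control 2 (-2.72, adjusted p = 0.0469) or control 3 (-3.23, adjusted p = 0.0291). The 4 other named fragments, from 38 or 39 to 69 and from 39 to 73 or 75, had log2 fold changes of 0.28, -0.84, 1.21 and -0.58, and none was called (adjusted p of 0.356 or more). With 1 library left out they ran from -0.49 to 0.94, -1.79 to -0.09, 0.05 to 1.72 and -1.16 to -0.02. The values nearest to 0 came without control 1 for 39 to 69, control 3 for 39 to 73 and experimental 3 for 39 to 75.

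**Figure D4:**
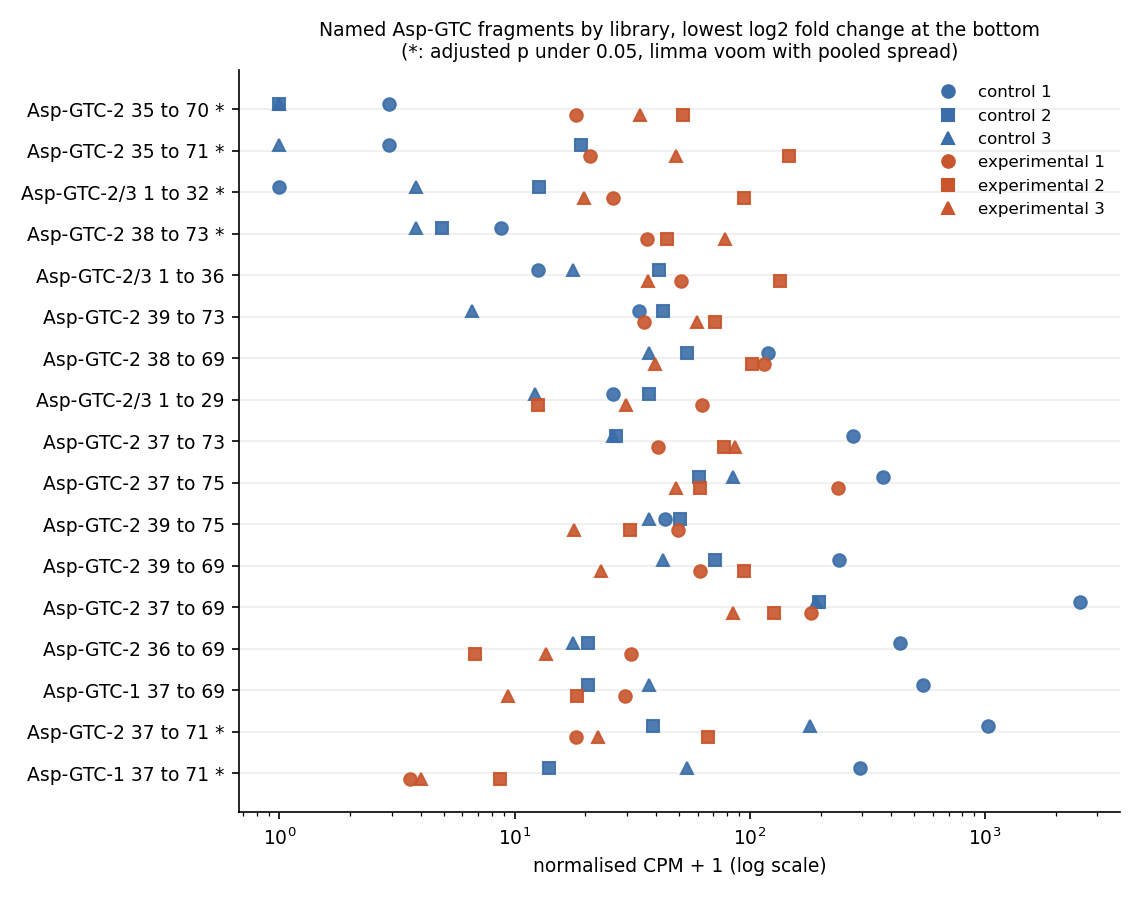
Normalised CPM plus 1 on a log axis for the 17 named Asp-GTC fragments, with 1 point per library, ordered by log2 fold change, and an asterisk for an adjusted p under 0.05 (limma voom, pooled spread). The 4 fragments at the top begin at 35, 1 or 38 and are higher in all experimental libraries (for 3 of them the filter fixed that direction). The 2 at the bottom run from 37 to 71, with control 1 far to the right. For the lower of these, Asp-GTC-1 37 to 71, the filter likewise fixed the direction.

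Reads that cover a differing base show which tRNA they came from. Over position 56, 1702 of 12141 reads carried the A of tRNA-Asp-GTC-1-1 and tRNA-Asp-GTC-3-1, which was 17.9%, 13.9% and 17.1% in the controls and 11.6%, 9.26% and 13.9% in the experimental libraries. Control 2 and experimental 3 both had 13.9%, and the means were of 16.3% ± 2.13 and 11.6% ± 2.32 (SD, n = 3 each, exact permutation p = 0.2). Over position 41, 9 of 12716 reads carried the A of tRNA-Asp-GTC-3-1, so nearly all of the A56 reads that reach position 41 match tRNA-Asp-GTC-1-1. Over position 20, which is covered by reads of the 5' side, the T of tRNA-Asp-GTC-1-1 made up 15 of 65, 42 of 169 and 22 of 61 reads in the controls and 32 of 324, 61 of 669 and 44 of 365 in the experimental libraries. That was 23.1%, 24.9% and 36.1% against 9.88%, 9.12% and 12.1%, with every control above every experimental library. The means were 27.998% ± 7.04 and 10.4% ± 1.52 (SD, n = 3 each), again at the smallest p that 3 against 3 libraries allow (two-sided exact permutation p = 0.1, adjusted p = 0.3 over the 36 position measures). The 95% Wilson intervals nearest to each other were 14.5% to 34.6% in control 1 and 9.10% to 15.8% in experimental 3, which overlap slightly because of the low depth of control 1 on this side of the tRNA.

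A small set of reads began in the T arm and ran into the acceptor stem. Those that begin at position 51 or 52 and end at 66 or later, such as Asp-GTC-2 52 to 69, comprised 22 sequences and 362 reads. They numbered 4, 3 and 3 in the controls and 183, 48 and 121 in the experimental libraries, or 0.0989%, 0.268% and 0.492% against 6.31%, 1.42% and 4.12% of member reads. The groups did not overlap (two-sided exact permutation p = 0.1, adjusted p = 0.3, chosen after the data were seen). Short reads across the anticodon that begin at 31 to 33 and end by 55 comprised 32 sequences and 928 reads, with 41, 111 and 88 reads in the controls and 170, 356 and 162 in the experimental libraries, and as shares they overlapped (exact permutation p = 1.0). The most abundant of them, Asp-GTC-1/2 32 to 46, had 8, 33 and 30 reads against 40, 77 and 62.

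The make-up of Asp-GTC reads differed from that of other tRNAs in the same libraries. Gly-GCC and Glu-CTC, the tRNAs best known for 5' pieces in tissues, and Gln-CTG were classed in the same way. Unlike for Asp-GTC, reads of these tRNAs could also match another anticodon of the same amino acid. The 5' fragments took 8.89% ± 4.98 (SD over 6 libraries) of Asp-GTC reads, 98.97% ± 0.719 of Gly-GCC and 94.4% ± 2.22 of Glu-CTC reads, and Asp-GTC was lower than both in 6 of 6 libraries. Gln-CTG had 0.828% ± 0.984 and was below Asp-GTC in 6 of 6. Long 3' fragments took 25.6% ± 8.84 of Asp-GTC reads and 0.00458%, 0.363% and 0.689% on average of Gly-GCC, Glu-CTC and Gln-CTG reads, with Asp-GTC higher in 6 of 6 libraries each time. In these comparisons the two-sided exact paired permutation test gave p = 0.031, the smallest possible for 6 libraries, and an adjusted p of 0.0341 over 12 comparisons.

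Against Gln-CTG, a tRNA also read mainly from its 3' side, the contrast lay in the length of the 3' piece. Short 3' fragments took 61.4% ± 14.9 of Gln-CTG reads and 7.27% ± 3.36 of Asp-GTC reads, lower in 6 of 6 libraries (exact paired permutation p = 0.031, adjusted p = 0.0341). Internal reads took 37.1% ± 14.0 of Gln-CTG and 58.2% ± 14.1 of Asp-GTC reads, higher in 5 of 6 libraries, which did not pass (exact paired permutation p = 0.0938). Internal reads took 0.930% ± 0.622 of Gly-GCC and 4.95% ± 2.26 of Glu-CTC reads, below Asp-GTC in 6 of 6 libraries. The 5' fragments of Asp-GTC ended at 32.2 ± 0.851 on average, against 31.4 ± 0.433 for Gly-GCC (exact paired permutation p = 0.125) and 33.98 ± 1.63 for Glu-CTC (p = 0.031 in the exact paired permutation test, adjusted p = 0.0625 over these 2 comparisons, chosen after the data were seen).

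**Figure D5:**
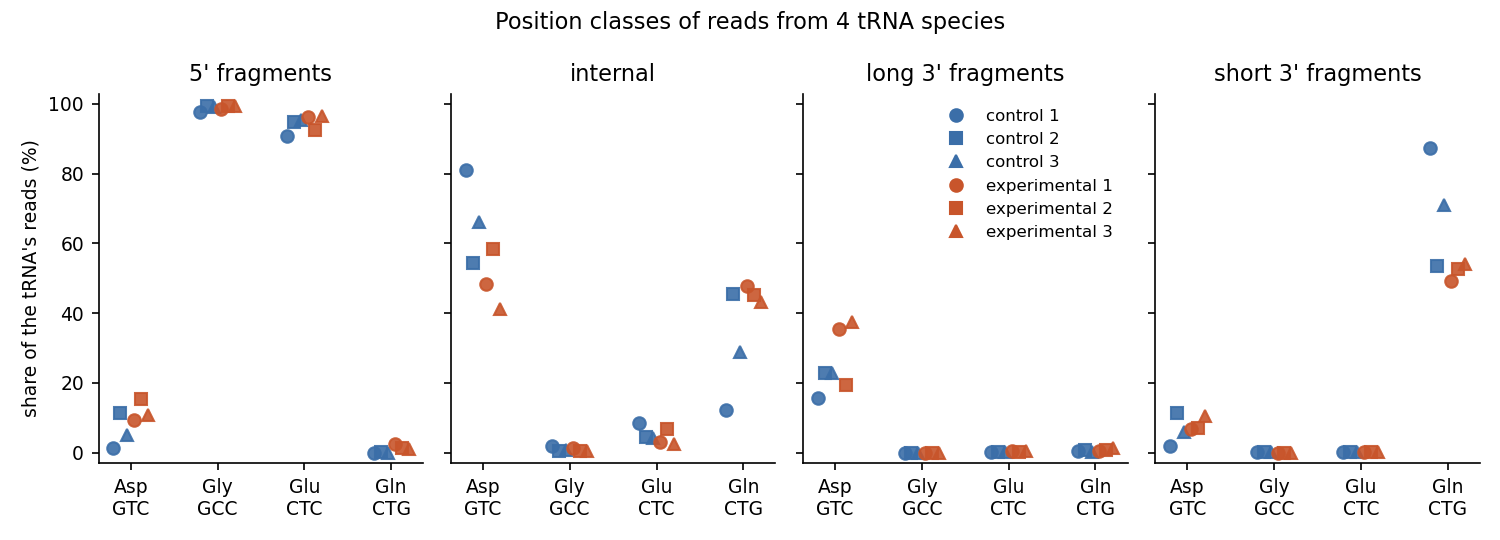
Share (%) of each tRNA's exactly matching reads in the 4 position classes, with 1 point per library. Reads of Gly-GCC, Glu-CTC and Gln-CTG may also match another anticodon of the same amino acid. Asp-GTC has 5' fragments at 1.29% to 15.3% where Gly-GCC and Glu-CTC are above 90%, and it has more long 3' fragments than any of the other 3 tRNAs in every library.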

How the data were processed

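Small RNA from muscle was sequenced in 6 libraries, 3 per group, with a NEBNext small RNA kit per the labels' protocols. Per the file headers, the authors collapsed reads into distinct sequences, aligned them to mature tRNAs with CCA and to precursors, and deposited other values beside each alignment, among them raw read counts per library, the start, the length, a mismatch note and a fragment type. Neither the aligner nor the build of the coordinates is given in the sources used here. A mouse build is named by the submitters' processing notes, although the samples are rat. For the chromosome coordinates the files give starts counted from 0, to which 1 was added.

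Each sequence was counted once. Sequences with at least 15 counts in all and, in at least 3 libraries, the CPM worth 10 counts in the median library were fitted in R 4.3.3 by voom of limma 3.58.1, with a prior count of 0.5, trimmed mean of M values factors, no covariate and Benjamini-Hochberg adjustment over all features. CPM are normalised by these factors. The fit was run on simulated counts with known changes and the same spread for all sequences, which need not hold in these libraries. Anticodon and class sums used exact mature nuclear matches. Two-sided exact permutation tests over libraries compared shares. The tRNA-aligned depth ranged from 316990 to 1927269 reads, and total library depth was not analysed here.

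The members and lists were chosen with earlier results of these data known. Members are named if they are among the 8 most abundant, the 2 most abundant of a class, or called, up to 8 per direction. Alternatives covered scaling, filters, spread, the log2(CPM + 1) scale, a replicate block, class boundaries, mismatches and each library left out.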

Additional observations from a re-analysis of the deposited data

How the results depend on the processing

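The counts behind Asp-GTC values were low, with 610 to 4045 member reads per library, and only 37 members could be tested one by one. The number called (6) was 3 with a CPM minimum 3 times as high, 0 with each fragment's own spread, and 5 to 10 with 1 library left out, the highest without control 2. It was 4 to 7 under the other alternatives. The log2 fold change of the anticodon sum ran from -0.664 to 0.112 with 1 library left out, positive without control 1 alone, and that of internal reads from -0.906 to 0.0226, likewise. For 5' fragments it ran from 0.895 to 2.08.

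Replicate numbers correlated at -0.310, -0.0573 and 0.136 across groups, and 1 of 6 libraries correlated best with its own number, so they are shared numbers only. With the replicate block the 5' fragments had 1.34 (adjusted p = 0.0208 in limma voom) and 6 members were called.

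Class boundaries moved the shares. With 3' fragments defined as ending at 66 or later, chosen after the data were seen, the log2 fold change was 0.492 for internal and -0.361 for long 3' fragments, and the difference of shares, experimental minus control, was 1.70 and -12.1 percentage points. With only the last base counted as the 3' end, long 3' fragments differed by -1.54 and short ones by -1.32 points, and with long fragments starting up to 42 the short ones differed by -0.0862. These follow from which reads a class holds. Leaving out 1 library, the short 3' difference ran from -0.437 to 4.19 points, the Asp-GTC share of tRNA reads from -0.243 to 0.0495 and the mean last position of 5' fragments from -0.518 to 0.533. Asp-GTC minus Gln-CTG internal reads, 21.1 points, became -22.6 with 3' ends taken within 9 bases of the last, chosen after the data were seen.

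Among named fragments not called, Asp-GTC-2 37 to 73 had log2 fold changes of -0.12 with library totals, -0.041 with median-of-ratios factors, -0.071 with the higher minimum and -0.84 to 1.31 with 1 library left out. Asp-GTC-2 37 to 75 ran from -1.37 to 0.35, Asp-GTC-2 38 to 69 from -0.49 to 0.94 (-0.049 with library totals) and Asp-GTC-2/3 1 to 29 from -0.58 to 0.90 (-0.12 with library totals). The cause was not tested. A quasi-likelihood count test was not run, because lines of text among the counts kept the columns from passing as counts.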
